A study of Homo sapiens with 6 samples.

Results

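The 78 genes described here encode proteins of the human mitochondrial ribosome. They were defined by name, as the protein-coding genes whose symbol begins with MRPL or MRPS followed by a number. Of them 49 carry an MRPL symbol (large subunit) and 29 an MRPS symbol (small subunit). They are 78 of the 29483 genes in the deposited table, which holds FPKM values, that is fragment counts corrected for gene length and library size. HK-2 is an immortalized line of human renal proximal tubule epithelial cells. The control group (replicates 1 to 3) was kept in medium with 25 mM glucose for 7 days and then for a further 1 day without TEPP-46. The case group (replicates 1 to 3) had the same glucose exposure and received 10 μM TEPP-46, an activator of the pyruvate kinase isoform PKM2, for that further 1 day. Every library therefore came from high-glucose cells, and no normal-glucose library was part of the comparison. The study calls the replicates independent, all from 1 cell line, and does not say in the sources used here how many cultures they came from.

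The mitochondrial ribosome translates the messages of the mitochondrial genome, which encode core subunits of the respiratory chain and of ATP synthase. Its RNA is made in the mitochondrion, whereas all of its proteins are encoded in the nucleus, made in the cytosol and imported. The small subunit binds and decodes the message and the large subunit joins the amino acids. Some of the proteins have counterparts in bacterial ribosomes and others are found only in mitochondria. Proximal tubule cells in the kidney rely heavily on mitochondrial ATP.

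The library sizes implied by the FPKM values ran from 17378710 to 18634891 reads in the control group and from 15363254 to 16711934 reads in the case group. Epithelial keratins were abundant, with a mean of 346 FPKM for *KRT19*, 308 FPKM for *KRT8* and 190.0 FPKM for *KRT18*. The renal transcription factors *PAX8* (0.114 FPKM) and *PAX2* (0.0167 FPKM) were near 0. All 9 proximal tubule markers measured, among them the endocytic receptors *LRP2* and *CUBN* and the transporters *SLC34A1* and *SLC5A2*, stayed under 1 FPKM on average. The highest of them was *MME* at 0.354 FPKM, and their summed level was between 0.568 and 0.975 FPKM per library. The libraries thus had an epithelial profile in which the defining proximal tubule transcripts were near 0. The epithelial cadherin gene *CDH1* was downregulated, from 3.42 ± 0.0811 to 2.05 ± 0.248 FPKM (SD, n = 3; log2 fold change -0.64, adjusted p = 0.0156 in limma). *KRT8* was not called (log2 fold change -0.27, adjusted p = 0.125), although its FPKM was lower in every case library (246 to 302) than in every control library (335 to 356). *KRT18*, *KRT19* and *EPCAM* were close to level (0.020, 0.020 and 0.037, adjusted p = 0.926, 0.922 and 0.795). The part of the *CDH1* difference in the results was not tested. Markers of distal tubule, podocyte, endothelium, leukocyte and fibroblast were also near 0, the highest being *COL1A1* at 0.245 FPKM.

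Short stretches of promoter are shown first, because many of these genes share sequence letters near their start. RefSeq promoter windows (GRCh38.p14, 250 bases before to 50 bases after the gene start) were found for 69 of the 78 genes. The letters CCGGAAG, the core bound by ETS factors such as GABPA, occurred on either strand in 29 of the 69 windows (42.0%), against 20.4% of the windows of all tested genes and 10.7% of all 27305 windows. Among them were 10 of 15 windows of genes called higher in the case group (66.7%) and 18 of 50 windows of tested genes not called (36.0%). The following stretches were picked, after the values were seen, from called genes, with CCGGAAG or its reverse complement CTTCCGG in capitals. All are written 5′ to 3′ on the strand of the gene.
MRPL48 (chr11:73787800-73787829, plus strand): aatttcagaagCTTCCGGaactaaaatgat
MRPS21 (chr1:150293839-150293868, plus strand): cgtaatttccgCTTCCGGtagtgagaaccc
MRPL27 (chr17:50373174-50373203, minus strand): acttttcgagaCCGGAAGtgagtgatcgaa
MRPL40 (chr22:19432523-19432552, plus strand): ggggcgcacgcCCGGAAGcggcgagggtag
MRPS22 (chr3:139343988-139344017, plus strand): cctcccaaccaCTTCCGGcgcaagtggctt
MRPL20 (chr1:1407296-1407325, minus strand): caggggctgacCCGGAAGcgctcgtgacca

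The letters AAGATGGCG, which fit the factor YY1, occurred in 13 of the 69 windows (18.8%), against 4.2% of the windows of all tested genes and 1.8% of all windows. They are given in capitals for *MRPL42*, the only member called lower, for *MRPL50*, which had the next lowest fitted change, and for *MRPL52*, which was called higher.
MRPL42 (chr12:93467512-93467541, plus strand): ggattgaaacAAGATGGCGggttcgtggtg
MRPL50 (chr9:101398576-101398605, minus strand): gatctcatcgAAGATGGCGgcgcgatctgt
MRPL52 (chr14:22829779-22829808, plus strand): acgatgacccAAGATGGCGgagccgtgatt
The NRF1 motif was in 8 windows (11.6%, against 12.4% of the windows of all tested genes) and the E-box CACGTG in 6 (8.7%, against 10.3%). The CRE letters TGACGTCA were in 0 of the 69 windows, against 3.5%. Of the 15 windows of genes called higher, 1 held the YY1 letters (6.7%), 0 the NRF1 motif and 0 the E-box, against 8, 8 and 6 of the 50 windows of tested genes not called. Both strands were searched and none of the 5 strings contains another. A match is a description of these letters and was not tested as a binding site, and no difference in motif shares between called and other genes was tested.

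Transcript levels of the mitochondrial ribosome were mostly a little higher in the TEPP-46 treated cells. Of the 78 genes, 75 had a mean of at least 0.5 FPKM and were tested, 47 of the large and 28 of the small subunit. In limma, 17 of the 75 were upregulated at an adjusted p of at most 0.05 (22.7%), against 7.34% of all 13599 tested genes, and 1 of the 75, *MRPL42*, was downregulated (1.33%), against 5.84%. The upregulated genes were 11 of 47 in the large subunit and 6 of 28 in the small subunit. The median log2 fold change (case minus control) was 0.23 in the large subunit and 0.20 in the small subunit, and over both it was 0.21, a 1.16-fold change. The median over all tested genes was -0.0017. The fitted change was above 0 for 68 of the 75 genes, against 49.8% of all tested genes. After scaling, all case values lay above all control values in 37 of the 75 genes and below them in 2, against 19.5% and 20.4% of all tested genes. In bulk RNA, a change in the number of expressing cells and a change in RNA per cell cannot be told apart.

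**Figure D1:**
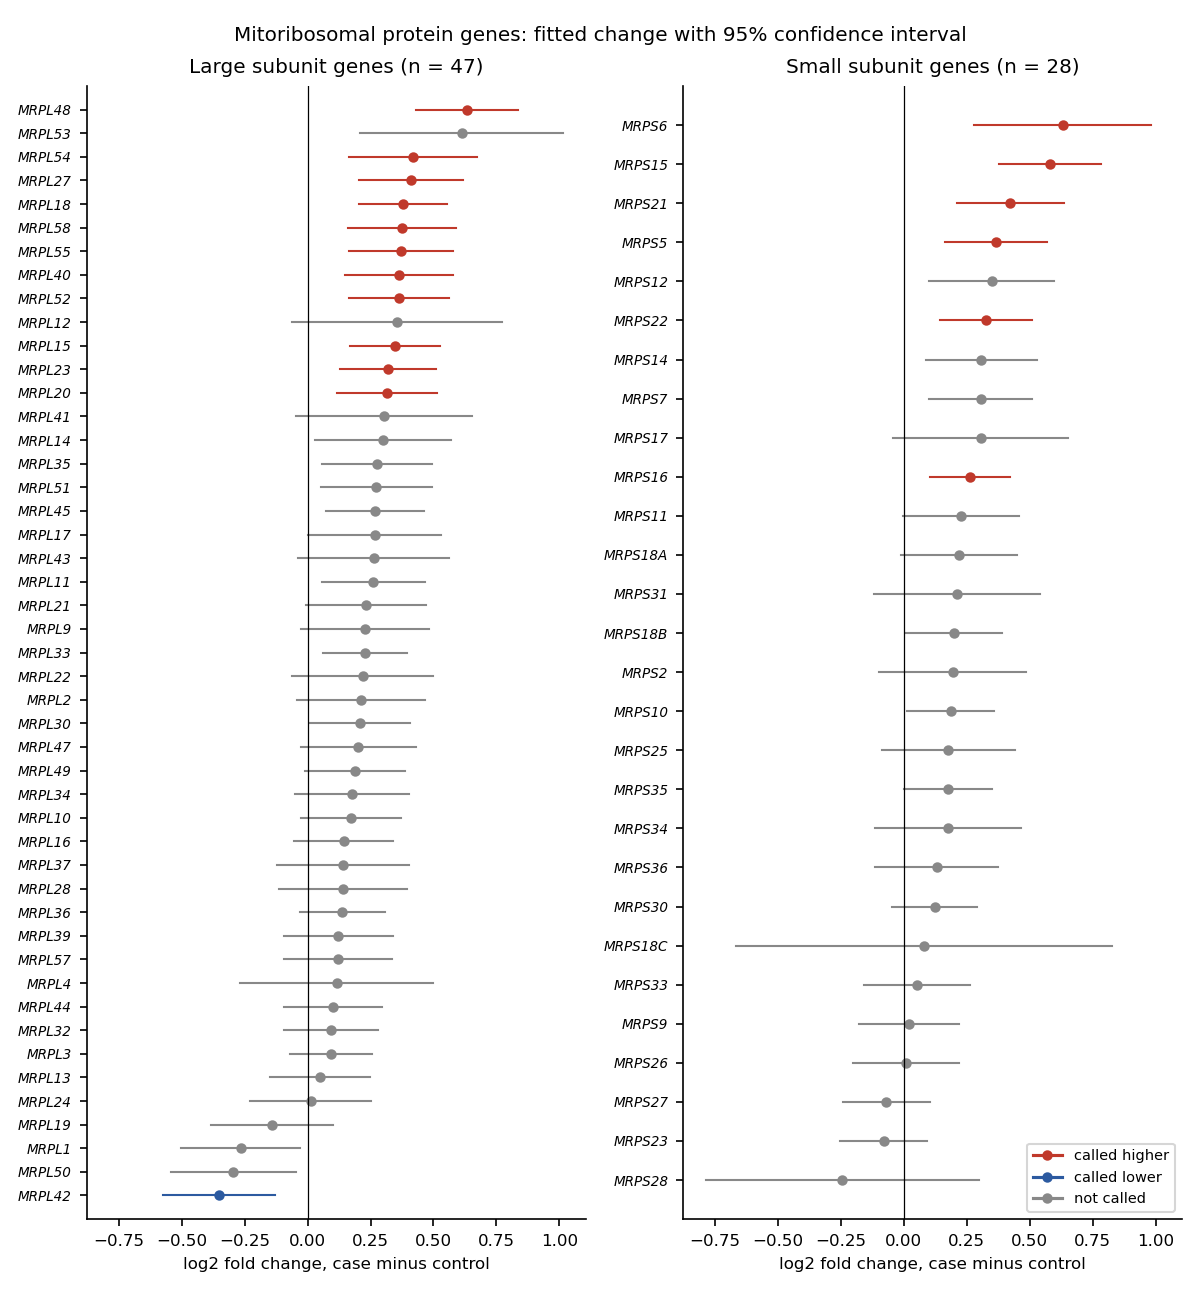
Fitted log2 fold change (x axis, case minus control) of each tested gene, with the 95% confidence interval as a line, for 47 large subunit and 28 small subunit genes. The 17 genes called higher are red and *MRPL42*, called lower, is blue, and 68 of the 75 points lie to the right of 0.

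These calls rested on small groups. When control replicate 1, 2 or 3 was left out, 0 members were called in each case. Of all tested genes 0.537%, 0.412% and 0.434% were then called higher in limma, and 0.206%, 0.118% and 0.132% lower. Of the members 25, 21 and 25 were higher at an unadjusted p under 0.05. When case replicate 1 was left out 14 members were called higher, against 8.90% of all tested genes. Without case replicate 2 the number was 35, against 13.2%, and without case replicate 3 it was 2, against 0.809%. The medians stayed above 0 in each of these 6 fits, between 0.15 and 0.32 in the large subunit and between 0.17 and 0.26 in the small subunit. The scaling of the libraries mattered as well. With values rescaled to the same FPKM sum in each library (TPM), 2 members were called higher and 4 lower, beside 383 higher and 2387 lower calls over all genes (998 and 794 with the scaling used here). The median of all tested genes then moved to -0.19, and the members stayed 0.21 above it. With FPKM as deposited, 10 members were called higher and 1 lower, beside 662 and 1124 calls over all genes, and the median of all tested genes was -0.076.

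The shift was not equal in the case libraries. Relative to the control mean of each gene on the log2 scale, the median of the 75 genes was 0.32 in case replicate 1, 0.079 in case replicate 2 and 0.27 in case replicate 3. In the control libraries it was 0.015, -0.025 and 0.0085. Case replicate 2 thus lay between the controls and the other two case libraries. In the large subunit the medians were 0.35, 0.044 and 0.28 in case replicates 1, 2 and 3, and in the small subunit they were 0.30, 0.12 and 0.24. Case replicate 2 was also the lowest by number of genes, since 66, 53 and 67 of the 75 genes were above their control mean in case replicates 1, 2 and 3. On the deposited scale, the FPKM of all 78 genes summed to 2807, 2732 and 2826 in the control libraries and to 3205, 2879 and 3212 in the case libraries. These sums did not overlap, at 2788 ± 49.6 (SD, n = 3) against 3099 ± 190.3 (SD, n = 3). As a share of all FPKM in the library they did, at 0.952% ± 0.0066 against 0.971% ± 0.0371. The share was 0.990% and 0.995% in case replicates 1 and 3, but 0.928% in case replicate 2, below the lowest control library (0.945%). The summed FPKM of all genes was itself higher in the case libraries (310111 to 323755) than in the control libraries (289245 to 295418).

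**Figure D2:**
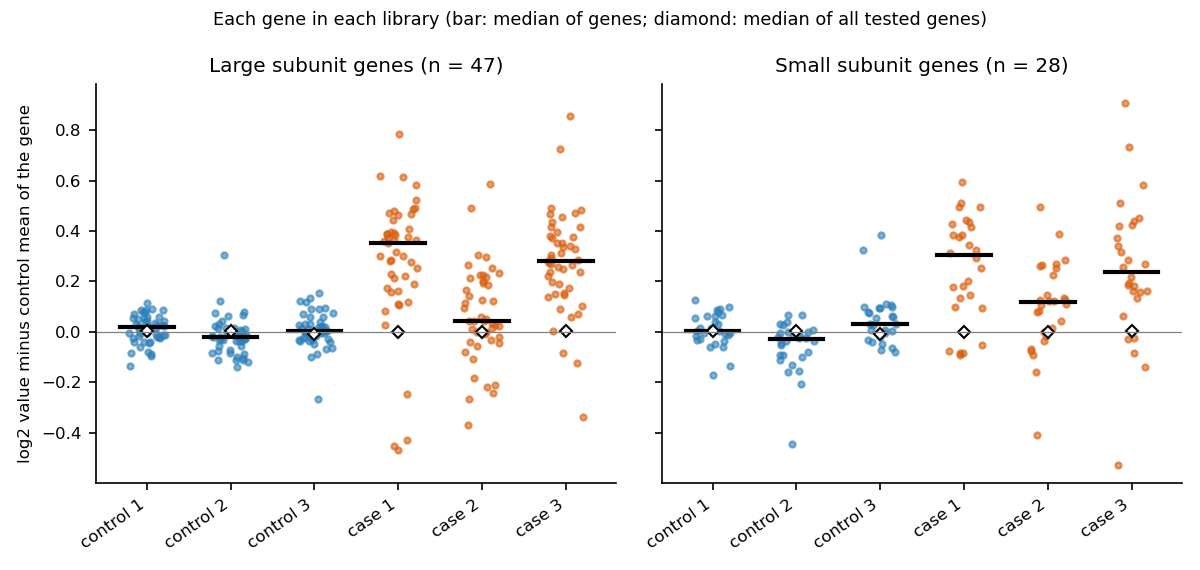
Log2 value of each tested gene minus its mean in the control group (y axis) in each of the 6 libraries (x axis), for the large and small subunit. Bars are medians of the genes and diamonds are medians of all tested genes, and the bars of case replicate 2 (0.044 and 0.12) are lower than those of case replicates 1 and 3.

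The largest increase among the large subunit genes was that of *MRPL48*, which encodes a protein found only in mitochondrial ribosomes (chr11:73787872-73865133, GRCh38, plus strand). Its level was 7.21, 7.48 and 6.73 FPKM in control replicates 1, 2 and 3 and 9.81, 10.5 and 11.3 FPKM in case replicates 1, 2 and 3. The groups did not overlap, and the mean rose from 7.14 ± 0.379 FPKM in the control group to 10.6 ± 0.750 FPKM in the case group (± is the SD of 3 replicates here and in what follows). The fitted log2 fold change was 0.63 (SE 0.088, adjusted p = 0.0102). In 16 of the 19 alternative analyses it was still called, more than any other member apart from *MRPS15*, which was called in 16 as well, and for both genes the 3 exceptions were the fits that left out a control library. Among the genes called higher, *MRPL23* was called in the fewest of the 19, namely 5, and *MRPL20* and *MRPS16* in 6 each. The *MRPL48* values rested on 513 to 762 reads per library.

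Next in the large subunit came *MRPL53* at a log2 fold change of 0.61 (SE 0.17, adjusted p = 0.055), which did not pass the threshold. Of its exon bases 99.4% also belong to exons of other genes, and only 43 to 81 reads stood behind its values. *MRPL54* had 54.7, 52.7 and 51.8 FPKM in control replicates 1, 2 and 3 and 74.6, 59.5 and 68.4 FPKM in case replicates 1, 2 and 3, a log2 fold change of 0.42 (SE 0.11, adjusted p = 0.0454). *MRPL27*, the counterpart of a bacterial protein that sits close to the peptidyl transferase centre, had 21.0, 20.3 and 21.3 FPKM in control replicates 1, 2 and 3 and 27.5, 24.4 and 27.3 FPKM in case replicates 1, 2 and 3. Its log2 fold change was 0.41 (SE 0.090, adjusted p = 0.0266), and all case values lay above all control values, as they did for *MRPL54*. *MRPL18*, the mitochondrial member of the uL18 family, had 52.6, 54.2 and 59.2 FPKM in case replicates 1, 2 and 3, against 44.8 ± 1.21 FPKM (SD, n = 3) in the control group, and its log2 fold change was 0.38 (SE 0.076, adjusted p = 0.0224). In *MRPL18* and *MRPL48*, case replicate 2 was not the lowest case library by deposited FPKM. After scaling this still held for *MRPL48*. For *MRPL18* case replicate 2 was then the lowest, at 0.36, 0.30 and 0.47 above the control mean (log2) in case replicates 1, 2 and 3.

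The remaining 7 upregulated large subunit genes had log2 fold changes between 0.32 and 0.37. *MRPL58*, which encodes a peptidyl-tRNA hydrolase that was built into the ribosome and can rescue stalled complexes, went from 59.4 ± 4.10 FPKM in the control group to 72.9 ± 4.02 FPKM in the case group (log2 fold change 0.37, SE 0.093, adjusted p = 0.0381). *MRPL15* was the most abundant of the upregulated genes, at 107 ± 5.42 FPKM in the control group and 129 ± 4.37 FPKM in the case group (log2 fold change 0.35, SE 0.078, adjusted p = 0.0285). *MRPL23*, whose bacterial counterpart lines the exit of the nascent chain tunnel, was the least abundant of those in the large subunit, at 5.31 ± 0.110 FPKM in the control group and 6.31 ± 0.358 FPKM in the case group (log2 fold change 0.32, SE 0.083, adjusted p = 0.044). *MRPL20*, whose counterpart is needed for bacterial large subunit assembly, was just inside the threshold at 28.1 ± 1.85 FPKM in the control group and 33.1 ± 1.08 FPKM in the case group (log2 fold change 0.32, SE 0.086, adjusted p = 0.0493). The others were *MRPL55* (log2 fold change 0.37), *MRPL40* (0.36) and *MRPL52* (0.36). The FPKM values of the groups did not overlap for any of these 7 genes. Called genes were chosen by the same values, so groups apart are not separate support, here or for the other called genes.

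In the small subunit the increases were led by *MRPS6* and *MRPS15*, both with bacterial counterparts, bS6 and uS15, that bind the small subunit RNA. *MRPS15* (chr1:36455718-36464384, minus strand) had 31.3, 30.2 and 29.4 FPKM in control replicates 1, 2 and 3 and 39.6, 41.8 and 48.1 FPKM in case replicates 1, 2 and 3. Its mean rose from 30.3 ± 0.963 FPKM in the control group to 43.2 ± 4.41 FPKM in the case group, with a log2 fold change of 0.58 (SE 0.088, adjusted p = 0.0128), and the control values lay within 2 FPKM of each other. *MRPS6* had 4.99, 3.96 and 4.86 FPKM in control replicates 1, 2 and 3 and 6.36, 5.90 and 8.28 FPKM in case replicates 1, 2 and 3, a log2 fold change of 0.63 (SE 0.15, adjusted p = 0.0356). The FPKM groups did not overlap for either gene, but the case values of *MRPS6* were widely spread and its SE was larger than that of *MRPS15*. *MRPS21*, one of the most abundant members, had 95.8, 86.4 and 94.1 FPKM in control replicates 1, 2 and 3 and 118, 108 and 125 FPKM in case replicates 1, 2 and 3, a log2 fold change of 0.42 (SE 0.092, adjusted p = 0.0266). Case replicate 2 was the lowest case library for *MRPS21* and still above every control.

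The other 3 upregulated small subunit genes changed less. *MRPS5*, the counterpart of a bacterial protein at the message entry site, went from 9.90 ± 0.509 FPKM in the control group to 12.1 ± 0.706 FPKM in the case group (log2 fold change 0.37, SE 0.089, adjusted p = 0.0357). *MRPS22*, found only in mitochondria, went from 9.18 ± 0.375 FPKM in the control group to 10.9 ± 0.408 FPKM in the case group (log2 fold change 0.33, SE 0.079, adjusted p = 0.0355). *MRPS16*, whose bacterial counterpart supports small subunit assembly, had the smallest called change, from 61.1 ± 1.44 FPKM in the control group to 69.4 ± 1.77 FPKM in the case group (log2 fold change 0.26, SE 0.069, adjusted p = 0.0454). Nearest outside the threshold in this subunit, and singled out after their values were seen, were *MRPS7*, at a log2 fold change of 0.31 (SE 0.089, adjusted p = 0.0578), *MRPS14*, at 0.31 (SE 0.095, adjusted p = 0.0668), and *MRPS12*, which encodes a decoding centre protein, at 0.35 (SE 0.11, adjusted p = 0.0679). The FPKM groups did not overlap for any of the 3 genes, which is not separate support, since they were picked by the same values.

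**Figure D3:**
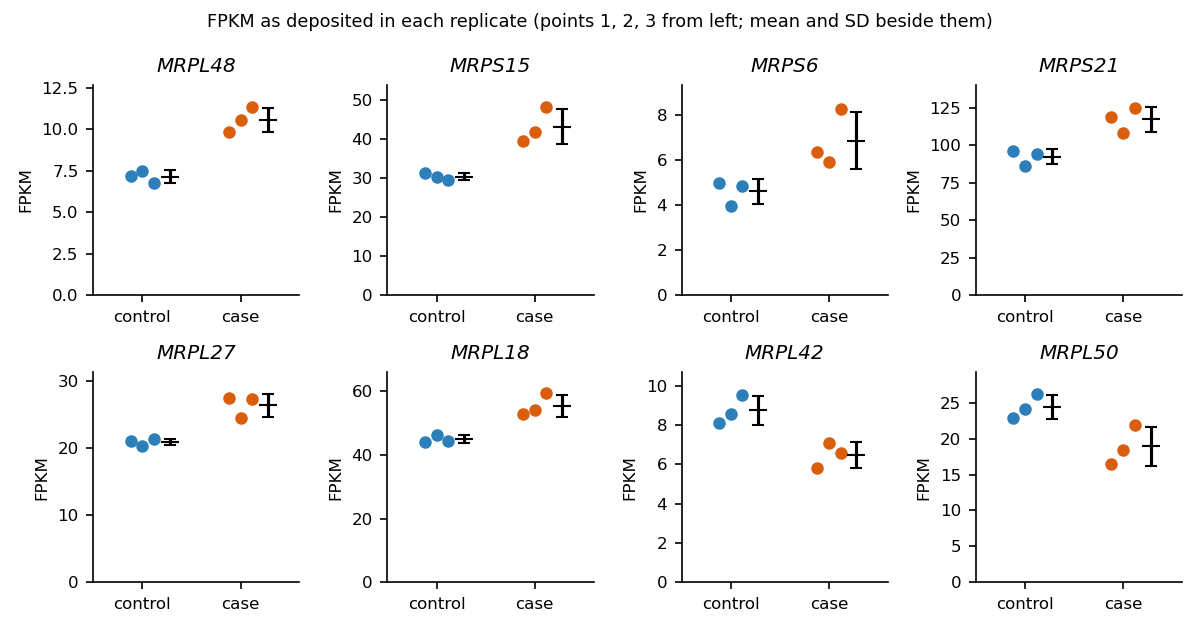
FPKM as deposited (y axis, from 0) in the 3 control and 3 case replicates for 6 genes with called increases and for *MRPL42* and *MRPL50*, with mean and SD beside the points. All case points lie above all control points in the 6 increased genes, and below them in *MRPL42* and *MRPL50*.

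Only 7 of the 75 tested genes had a fitted change below 0. *MRPL42* (chr12:93467514-93516214, plus strand), a mitochondria-specific large subunit gene, had 8.12, 8.58 and 9.54 FPKM in control replicates 1, 2 and 3 and 5.80, 7.07 and 6.57 FPKM in case replicates 1, 2 and 3. Its mean went from 8.75 ± 0.729 FPKM in the control group to 6.48 ± 0.643 FPKM in the case group, and its log2 fold change of -0.35 (SE 0.097, adjusted p = 0.0495) was just inside the threshold. It was among the longest members, at 16393 bases as implied by the FPKM values. After a correction for gene length the log2 fold change was 0.019 (adjusted p = 0.916, limma), so the decrease was not seen with that correction. After rescaling to TPM *MRPL42* was called lower, at -0.55 (adjusted p = 0.0197, limma). *MRPL50* had 22.9, 24.2 and 26.1 FPKM in control replicates 1, 2 and 3 and 16.5, 18.4 and 21.9 FPKM in case replicates 1, 2 and 3, with a log2 fold change of -0.29 (SE 0.11, adjusted p = 0.104). *MRPL1*, whose bacterial counterpart forms the stalk beside the tRNA exit site, had 14.4, 14.6 and 14.5 FPKM in control replicates 1, 2 and 3 and 9.55, 12.3 and 12.7 FPKM in case replicates 1, 2 and 3, and its log2 fold change was -0.27 (SE 0.10, adjusted p = 0.115). For *MRPL50* and *MRPL1* the deposited FPKM values of the groups did not overlap, but neither gene passed the test. After median-of-ratios scaling the groups of *MRPL50* overlapped. *MRPL50* and *MRPL1* have lengths of 3332 and 1943 bases. With the gene length correction their log2 fold changes were -0.37 (adjusted p = 0.0654) and -0.41 (adjusted p = 0.0648, limma), and neither was called. The part of gene length in their changes was not tested. *MRPL50* and *MRPL1* were both called lower after rescaling to TPM (adjusted p = 0.0242 and 0.0345) and with a correction for length and GC content (adjusted p = 0.0455 and 0.0129).

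The small subunit had no called decrease in the reported fit. Its 3 lowest changes were those of *MRPS28* (log2 fold change -0.24, SE 0.24, adjusted p = 0.505), *MRPS23* (-0.079, SE 0.075, adjusted p = 0.496) and *MRPS27* (-0.070, SE 0.076, adjusted p = 0.556), which encodes a pentatricopeptide repeat protein. *MRPS28* had only 29 to 65 reads per library. As deposited, the FPKM values of *MRPS23* and *MRPS27* were lower in every case library than in every control library, whereas after scaling the groups overlapped. *MRPS23* is a long gene at 6379 bases. *MRPS27* is at least as long, since its FPKM values fit 6511 bases or a multiple of it and its GENCODE exons cover 19524 bases. With 6511 bases taken for *MRPS27*, both genes turned to 0.016 and 0.031 on the log2 scale with the correction for gene length. After rescaling to TPM, *MRPS23* was called lower (log2 fold change -0.28, adjusted p = 0.0324, limma). *MRPS27* was as low as -0.27 among the alternatives and was called in none of them (lowest adjusted p = 0.0546, limma).

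Gene length moved with the comparison over the whole table. Among all 13599 tested genes, the 4535 shortest had a median log2 fold change of 0.15, the 4531 of middle length 0.020 and the 4533 longest -0.17. Most of the mitochondrial ribosomal genes, 52 of 75, were among the shortest, 18 in the middle and 5 among the longest. In case replicates 1, 2 and 3 the median of the shortest genes was 0.24, 0.057 and 0.20, so the library order was that of the ribosomal genes. After a lowess correction for gene length in each library, the median log2 fold change was 0.11 in the large subunit and 0.098 in the small. Over all tested genes it was 0.012. With this correction 8 of the 75 members were called higher, down from 17 without it, against 7.01% of all tested genes. None was called lower, against 4.2% of all tested genes. The 8 were *MRPL27*, *MRPL48*, *MRPL52*, *MRPS5*, *MRPS6*, *MRPS15*, *MRPS21* and *MRPS22*. Of these calls 5 were in the small subunit and 3 in the large, a split that was not tested. Across the 75 members, which share libraries and scaling, the Spearman correlation of length and log2 fold change was -0.177, and across all tested genes it was -0.358. GC content did not split the case libraries in the same way. In the 4497 genes with the lowest GC content the medians were -0.22, 0.049 and 0.018 in case replicates 1, 2 and 3. In the 4496 with the highest GC content they were 0.16, -0.098 and -0.051.

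**Figure D4:**
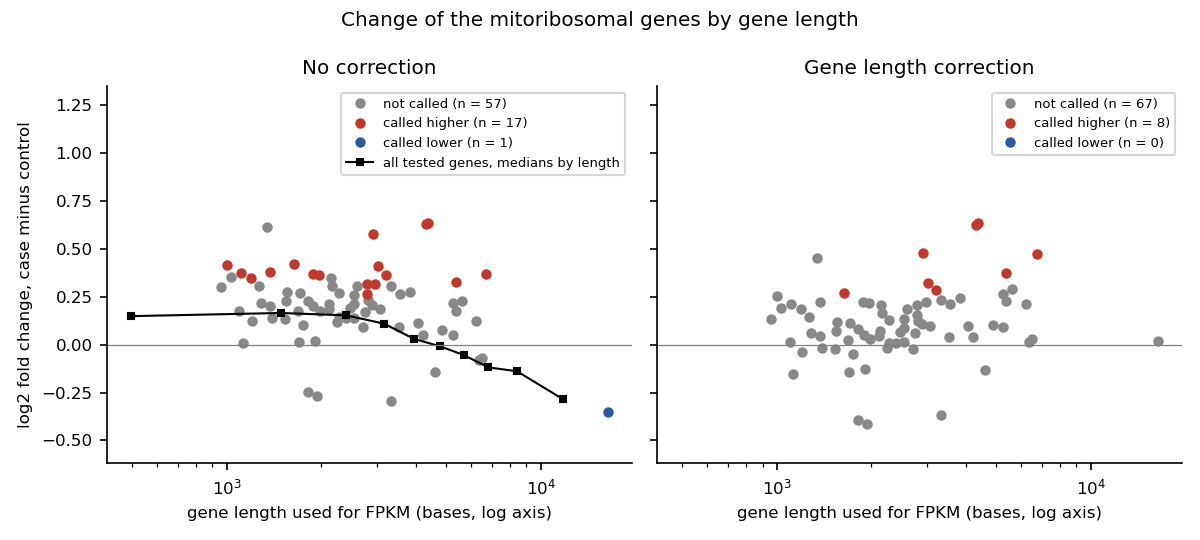
Log2 fold change of the 75 tested genes (y axis) against the gene length behind the FPKM values (x axis, bases, log scale), without correction on the left and with a gene length correction on the right. The black line is the median of all tested genes in 10 classes of length, which runs from 0.15 in the shortest to -0.29 in the longest class, and 17 genes are called higher on the left and 8 on the right.

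Subunit symbols do not always give the place of a protein, since *MRPS30* and *MRPS18A* encode proteins of the large subunit. Moving both there gave medians of 0.22 in the large and 0.20 in the small subunit. *MRPS30* had a log2 fold change of 0.12 (SE 0.073, adjusted p = 0.28). The 3 paralogs *MRPS18A*, *MRPS18B* and *MRPS18C*, related to a single bacterial protein, occupy different places in the ribosome. *MRPS18B* was the most abundant of them at 77.5 ± 4.53 FPKM in the control group and 84.3 ± 2.16 FPKM in the case group, followed by *MRPS18A* at 34.0 ± 1.49 FPKM in the control group and 37.6 ± 3.37 FPKM in the case group and by *MRPS18C* at 0.554 ± 0.183 FPKM in the control group and 0.548 ± 0.106 FPKM in the case group. Their log2 fold changes were 0.20 (SE 0.083, adjusted p = 0.137), 0.22 (SE 0.10, adjusted p = 0.169) and 0.079 (SE 0.32, adjusted p = 0.889), and none was called. *MRPS36* carries a small subunit symbol but is now assigned to the oxoglutarate dehydrogenase complex, and its log2 fold change was 0.13 (SE 0.11, adjusted p = 0.421).

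The stalk of the large subunit, which recruits translation factors, is built from *MRPL10*, *MRPL11* and *MRPL12*, and none of them was called. Their log2 fold changes were 0.17 (SE 0.087, adjusted p = 0.204), 0.26 (SE 0.089, adjusted p = 0.0874) and 0.35 (SE 0.18, adjusted p = 0.21). *MRPL12* had 5.69, 5.37 and 5.43 FPKM in control replicates 1, 2 and 3 and 8.73, 5.40 and 6.33 FPKM in case replicates 1, 2 and 3. Case replicate 2 lay within the control range, and case replicates 1 and 3 lay above it.

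Members were also classed by the name of the protein in ribosome structures, which marks *MRPS18A* and *MRPS18B* as mitochondrial only although they are relatives of a bacterial protein. Of the genes classed with a bacterial counterpart 11 of 45 were called higher (24.4%, against 7.34% of all tested genes) and 0 lower (against 5.84%), with a median log2 fold change of 0.23. Of those classed as mitochondrial only, 6 of 29 were called higher (20.7%) and 1 lower (3.45%), with a median of 0.19. The difference between these classes was not tested.

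The members differed far more in level than in response. The mean over the 6 libraries ran from 0.147 FPKM for *MRPL38* to 198 FPKM for *MRPS34*, and 63 of the 78 genes had at least 10 FPKM. The most abundant after *MRPS34* were *MRPL14* (142 FPKM), whose counterpart lies at the subunit interface, *MRPL24* (124 FPKM), *MRPL15* (118 FPKM), *MRPL41* (109.8 FPKM) and *MRPS21* (105 FPKM). *MRPS34* had 191, 180.0 and 199 FPKM in control replicates 1, 2 and 3 and 235, 177 and 203 FPKM in case replicates 1, 2 and 3, and its groups overlapped (log2 fold change 0.18, SE 0.13, adjusted p = 0.361). *MRPL14* also overlapped, at 130.4 ± 8.40 FPKM in the control group and 153 ± 18.0 FPKM in the case group (log2 fold change 0.30, SE 0.12, adjusted p = 0.12). *MRPL24* was close to level, at 127 ± 1.46 FPKM in the control group and 121 ± 12.5 FPKM in the case group (log2 fold change 0.012, SE 0.10, adjusted p = 0.949, 95% confidence interval -0.23 to 0.25).

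The lowest levels were mostly found in genes that share a large part of their exons with other genes. Under 1 FPKM on average were 4 members, namely *MRPL38*, *MRPL46*, *MRPS24* and *MRPS18C*. Of the 8 genes with the lowest mean FPKM, 7 had at least 20% of their exon bases in exons of another gene in GENCODE v44, against 1 of the 8 with the highest. *MRPS24* shares 23.2% of its exon bases, most with the readthrough gene *URGCP-MRPS24* on the same strand, *MRPL38* shares 45.1%, *MRPL46* shares 11.3% and *MRPS18C* shares 40.2%, most with *ABRAXAS1* on the other strand. The 20 genes with at least 20% shared had a median of 11.7 FPKM and the other 58 a median of 35.1 FPKM. How reads from shared exons were assigned is not given in the sources used here, and its part in these levels was not tested. Of the 18 tested genes in the shared class 2 were called higher (*MRPS5* and *MRPS22*, 11.1%) and 0 lower, and of the 57 others 15 were called higher (26.3%) and 1 lower (1.75%), against 7.34% and 5.84% of all tested genes. The difference between these classes was not tested.

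The 3 members under 0.5 FPKM were not tested. *MRPS24*, the counterpart of the bacterial uS3 protein, had 0.308, 0.299 and 0.176 FPKM in control replicates 1, 2 and 3 and 0.618, 0.596 and 0.399 FPKM in case replicates 1, 2 and 3. Its FPKM groups did not overlap, but only 8 to 27 reads per library stood behind them. *MRPL38* was at 0.141 ± 0.0495 FPKM in the control group and 0.152 ± 0.0277 FPKM in the case group with 6 to 13 reads per library, and *MRPL46* at 0.234 ± 0.150 FPKM in the control group and 0.233 ± 0.112 FPKM in the case group with 14 to 45 reads. The groups of the latter genes overlapped.

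**Figure D5:**
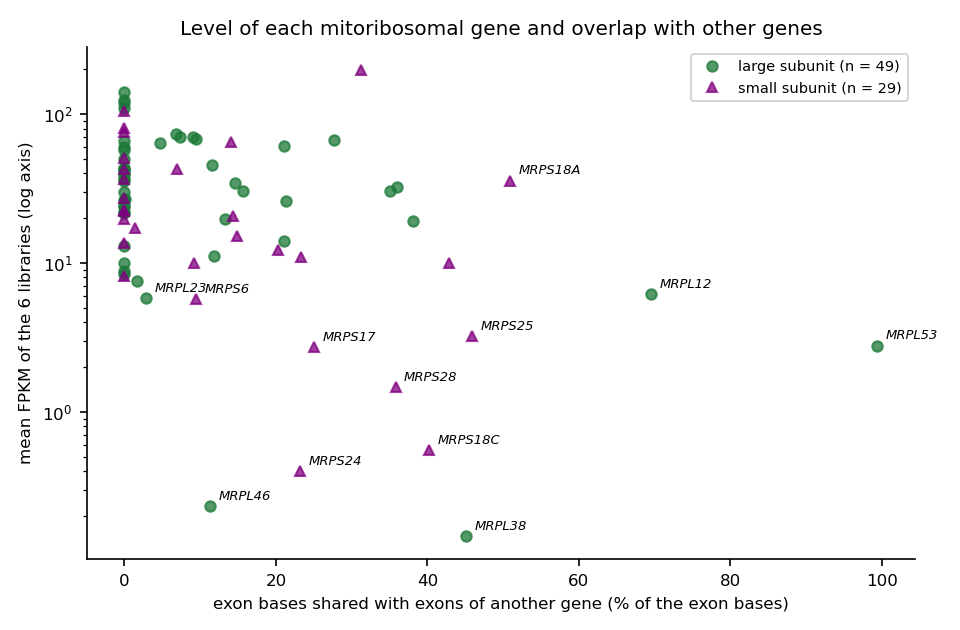
Mean FPKM over the 6 libraries (y axis, log scale) of the 78 genes against the percentage of their exon bases that lie in exons of another gene (x axis). The lowest points, *MRPL38*, *MRPL46*, *MRPS24* and *MRPS18C*, all share exon bases with other genes, while *MRPS34* is the highest point with 31.2% shared.

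The RNA components of this ribosome and the messages it translates were measured in the same table. Of the 13 protein genes of the mitochondrial genome 9 were upregulated (69.2%, against 7.34% of all tested genes) and 0 downregulated (against 5.84%). Their median log2 fold change was 0.54. These genes are short, at a median of 784 bases against 4347 over all tested genes. The part of their length in these changes was not tested. *MT-CO3*, a core subunit of cytochrome c oxidase, went from 4301 ± 404 FPKM in the control group to 6447 ± 294 FPKM in the case group (log2 fold change 0.66, SE 0.10, adjusted p = 0.0127). *MT-ND2* and *MT-ND6*, subunits of complex I, had log2 fold changes of 0.65 (SE 0.098, adjusted p = 0.0127) and 0.65 (SE 0.15, adjusted p = 0.0309). *MT-ATP6*, a subunit of ATP synthase, went from 1200.5 ± 44.1 FPKM in the control group to 1783 ± 126 FPKM in the case group (log2 fold change 0.65, SE 0.082, adjusted p = 0.0081). *MT-CO3*, *MT-ND2* and *MT-ATP6* were each called in 14 of the 19 alternative analyses and *MT-ND6* in 9. The 4 genes not called in the reported fit were *MT-ND3* (log2 fold change 0.33), *MT-ND4L* (0.025), *MT-ND5* (0.13) and *MT-ATP8* (0.15). *MT-ATP8* overlaps *MT-ATP6* and *MT-ND4L* overlaps *MT-ND4*, and *MT-ND6* lies on the opposite strand. How reads at these places were assigned, and its part in these values, was not tested. Unlike the nuclear ribosomal genes, the median of the 13 genes was about as high in case replicate 2 (0.60) as in case replicates 1 (0.48) and 3 (0.54). The difference in order was not tested.

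Of the ribosomal RNAs themselves, *MT-RNR1*, the small subunit RNA, rose from 1126 ± 167 FPKM in the control group to 1792 ± 149 FPKM in the case group (log2 fold change 0.75, SE 0.12, adjusted p = 0.014). *MT-RNR2*, the large subunit RNA, was at 7166 ± 364 FPKM in the control group and 8586 ± 292 FPKM in the case group, and its log2 fold change of 0.34 (SE 0.096, adjusted p = 0.0534) did not pass the threshold although the FPKM groups did not overlap.

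Among 5 ribosomal proteins with other symbols 1 was upregulated (20%, against 7.34% of all tested genes) and 0 downregulated (against 5.84%). The median log2 fold change of the 5 was 0.27. The upregulated gene was *DAP3*, a small subunit protein that binds GTP, which went from 52.8 ± 1.85 FPKM in the control group to 64.0 ± 4.15 FPKM in the case group (log2 fold change 0.35, SE 0.080, adjusted p = 0.0296). Of 24 tested assembly factors 3 were upregulated (12.5%, against 7.34% of all tested genes) and 0 downregulated (against 5.84%), and the median was 0.084. *YBEY*, an endoribonuclease needed for the small subunit, went from 11.6 ± 1.21 FPKM in the control group to 17.2 ± 1.67 FPKM in the case group (log2 fold change 0.63, SE 0.11, adjusted p = 0.0177). The RNA methyltransferases of the large subunit RNA *MRM3* and *MRM2* had log2 fold changes of 0.45 (SE 0.10, adjusted p = 0.0306) and 0.35 (SE 0.085, adjusted p = 0.0377). *MTG1*, a GTPase of large subunit assembly, was too low to test. Of 16 mitochondrial translation factors 1 was upregulated (6.25%, against 7.34%), *MTRFR*, which helps to rescue stalled ribosomes, at a log2 fold change of 0.32 (SE 0.084, adjusted p = 0.047), and the median was 0.10.

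The list of regulators of mitochondrial gene expression holds genes that act on nuclear genes or, like *TFAM* and *POLRMT*, on the mitochondrial genome. Of the 12 tested, 1 was upregulated (8.33%, against 7.34% of all tested genes) and 0 downregulated (against 5.84%). Their median log2 fold change was -0.030. *MYC*, a transcription factor that binds the E-box, had 52.7, 48.9 and 53.2 FPKM in control replicates 1, 2 and 3 and 72.8, 63.3 and 65.3 FPKM in case replicates 1, 2 and 3, a log2 fold change of 0.45 (SE 0.095, adjusted p = 0.0245). Furthest from 0 was the coactivator *PPARGC1B*, which had 0.808, 0.926 and 0.888 FPKM in control replicates 1, 2 and 3 and 0.367, 0.633 and 0.409 FPKM in case replicates 1, 2 and 3. All its case values were below all its control values, but its log2 fold change of -0.74 (SE 0.26, adjusted p = 0.0953) did not pass the threshold. Of the other factors whose letters were searched in the promoters, 3 were in this list and were not called, at log2 fold changes of -0.30 (SE 0.14, adjusted p = 0.184) for *GABPA*, -0.068 (SE 0.10, adjusted p = 0.678) for *NRF1* and 0.0089 (SE 0.077, adjusted p = 0.949) for *YY1*. The cytosolic ribosome was measured for comparison. Of its 76 tested protein genes 24 were upregulated (31.6%, against 7.34% of all tested genes) and 0 downregulated (against 5.84%), with a median log2 fold change of 0.33. Their medians were 0.47, 0.086 and 0.37 in case replicates 1, 2 and 3, the same order of libraries as in the mitochondrial ribosome. The difference between these gene lists was not tested.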

How the data were processed

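RNA was sequenced from 3 control and 3 case libraries of HK-2 cells. The authors aligned the reads with HISAT2 2.1.0 to GRCh38.p13 and counted them per gene with HTSeq 0.6.0, according to the submitters' processing notes, and deposited 1 table of FPKM values per gene and library. The mode and strand setting of the counting are not given in the sources used here. Gene symbols, positions and exon overlaps came from GENCODE v44 (GRCh38), in which 29063 of the 29483 genes had a symbol.

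Values were scaled between libraries by the median of ratios, and log2(FPKM + 0.1) was compared, for genes whose average over all libraries reached 0.5 FPKM, by limma 3.58.1 (R 4.3.3) with an intensity trend. Adjusted p-values are Benjamini-Hochberg values over all 13599 tested genes, and genes were called at an adjusted p of at most 0.05. Fold changes on this scale understate changes of low genes. Whole reads were recovered from the steps of the FPKM values, within 0.02 of a whole number, for 27118 of 27922 genes above 0, and for the other 804 with the help of exon length. They gave 99.93% to 99.94% of each library size, and an alternative test on them (limma's voom) called 1298 genes higher and 1512 lower. Lengths implied by those steps are the gene lengths used here. Read numbers describe counting error only.

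The genes named were all called members, the 3 highest and 3 lowest in change and in level per subunit, the *MRPS18* paralogs, *MRPS30*, the stalk genes, the untested members, and the called genes of the other lists (in lists with more than 8 calls, the 4 furthest from 0; the cytosolic ribosome was only counted). Other genes, such as *MRPL41*, *MRPS36*, *MRPS7*, *MRPS14*, *MRPS12*, *PPARGC1B* and the factors of the motifs, were named after their values were seen. A marker gene is not reported here. The members and lists were chosen with earlier results of these data known. Alternatives changed the pseudocount, filter, scaling, trend, block, gene length or GC correction, count model and replicates.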

Additional observations from a re-analysis of the deposited data

How the results depend on the processing

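Of 17 members called higher, 1 called lower and the medians of 0.23 (large subunit) and 0.20 (small subunit), the medians stayed above 0 in every alternative except the rescaling to the same FPKM sum in each library (TPM), where they were 0.027 and -0.0029 and 2 members were higher and 4 lower, against 2.82% and 17.6% of all tested genes. A pseudocount of 1 (17 higher, 1 lower), a minimum mean of 1 FPKM (18 and 1) and voom on recovered reads (18 and 1) gave nearly the same counts of members. Of all tested genes these fits called 7.37%, 9.65% and 9.54% higher. They called 5.96%, 7.84% and 11.1% lower, against 5.84% in the reported fit. The percentages after the counts are the shares of all tested genes called higher (7.34% in the reported fit). The number of calls was 3 higher and 0 lower with no filter on low values (1.18%, and 0.684% lower) and 2 and 0 without the intensity trend (3.18%, and 3.04% lower). It was 10 and 1 with FPKM as deposited (4.87%, and 8.27% lower, small subunit median 0.12), and 30 and 0 with a GC correction (14.7%, and 10.0% lower). The gene length correction gave 8 and 0 (7.01%, and 4.2% lower), with medians of 0.11 and 0.098. Leaving out 1 replicate at a time gave 0 to 35 higher (0.412% to 13.2%) and 0 to 1 lower (0.118% to 12.2% of all tested genes were lower), with medians of 0.15 to 0.32 and 0.17 to 0.26. Without case replicate 2 and with the length correction, chosen after seeing the data, 14 were higher and 1 lower (10.3%, and 6.75% lower). With length and GC correction, also chosen then, 17 were higher and 2 lower (13.7%, and 7.15% lower). Except where the construction of an alternative shows it, the cause was not tested.

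With the replicate number as a block, 11 members were higher and 0 lower (6.24% of all tested genes were higher and 5.6% lower). With block and gene length correction the numbers were 4 and 0 (4.31%, and 2.63% lower), with medians of 0.11 and 0.098. The deviations of same-numbered libraries correlated at 0.063, 0.0998 and -0.053 over all tested genes, so the numbers do not show a pairing, and not every library correlated best with its own number.

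Among single genes, the direction turned in 17 cases. With TPM the log2 fold change was -0.00055 for *MRPS18B*, -0.089 for *MRPS18C*, -0.077 for *MRPS30* and -0.027 for *MRPL10*. With the gene length correction, alone or with the block, it was 0.019 for *MRPL42*, 0.016 for *MRPS23* and 0.031 for *MRPS27*. Without case replicate 2 and with that correction it was 0.083, 0.086 and 0.074 for these genes. With length and GC correction it was 0.076 for *MRPL42* and 0.032 for *MRPS27*. For *MRPS18C*, leaving out 1 replicate at a time gave -0.14 to 0.27. The other 780 comparisons of single genes with their reported value kept their direction, 519 of them with the same side of the threshold, 248 no longer past it and 13 newly past it. Depth limited *MRPS18C* (32 to 62 reads), *MRPS28* (29 to 65) and *MRPL53* (43 to 81) most among the tested members.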
